A study of Mus musculus with 24 samples.

Results

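The 37 genes of the mouse mitochondrial genome were followed in 4 tumour cell lines in which a single guide RNA against B2m (sgB2m) was set against a non-targeting guide (sgNT). The lines were MC38 (colon adenocarcinoma), LLC1 (Lewis lung carcinoma), AKR (esophageal carcinoma) and Hepa1-6 (hepatocellular carcinoma), all grown in DMEM with serum, with 3 bulk RNA-seq libraries per line and guide and 24 in all. B2m is the gene of the MHC class I light chain, and the study asked how loss of MHC class I affects tumours. The labels do not say whether edited cells were cloned or pooled, nor whether the 3 libraries of a group came from separate cultures, so p-values measure the spread between these libraries, which may be technical. The genes were taken as every entry whose symbol starts with mt-. They comprised 13 mRNA genes, 2 rRNA genes and 22 tRNA genes, and all 37 were present in each line's table, which listed 28774 genes for MC38, 27398 for LLC1, 28237 for AKR and 26146 for Hepa1-6.

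Mitochondrial DNA is a small circle that is held in many copies per cell and is transcribed from both strands by its own RNA polymerase, Polrmt, into long precursor RNAs. tRNA sequences lie between most of the mRNA and rRNA sequences, and their excision at both ends by nuclear-encoded nucleases releases the mature RNAs. Its mRNAs encode core subunits of respiratory complexes I, III and IV and of the ATP synthase, complex V, while every other subunit, and all of complex II, comes from nuclear genes. The final level of each mitochondrial RNA depends on the number of genomes, on transcription and on the stability of the individual RNA, none of which was measured separately.

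Sequences are shown where neighbouring genes shared their response or share bases, which decides what a read can be assigned to. All are from the GENCODE M21 transcripts of GRCm38, the assembly named mm10 in the submitters' processing notes, and are written 5′ to 3′ on the plus strand. The first set is the block of 3 tRNA genes between mt-Nd4 and mt-Nd5 that gave the 3 highest fold changes in LLC1 and the 2 highest in MC38. The capitals mark the anticodon.
mt-Th, tRNA for histidine, chrM:11546-11612: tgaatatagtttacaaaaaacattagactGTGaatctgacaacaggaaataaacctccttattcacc
mt-Ts2, a tRNA for serine, chrM:11613-11671: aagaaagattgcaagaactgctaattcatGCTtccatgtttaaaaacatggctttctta
mt-Tl2, a tRNA for leucine, chrM:11671-11741: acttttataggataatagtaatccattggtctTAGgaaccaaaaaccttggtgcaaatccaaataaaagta
The second set is a pair of places where neighbouring mRNA genes overlap on the same strand, with 12 bases on each side and the shared bases in capitals. mt-Atp6 and mt-Co3 also share the base at chrM:8607, which is not shown. A read that lies within the capitals belongs to both genes.
mt-Atp8 and mt-Atp6, chrM:7915-7981: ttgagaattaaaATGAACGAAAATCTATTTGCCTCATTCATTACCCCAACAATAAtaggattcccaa
mt-Nd4l and mt-Nd4, chrM:10155-10185: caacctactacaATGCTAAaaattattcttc

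The shared stretch was 43 bases for mt-Atp8 and mt-Atp6 and 7 bases for mt-Nd4l and mt-Nd4. The mt-Nd6 gene and 8 of the tRNA genes lie on the minus strand, opposite to the other mRNA genes, and mt-Nd6 overlaps the end of mt-Nd5. Whether the authors' counting used the strand of a read is not given in the sources used here, so reads of such a gene and of RNA from the opposite strand may not have been told apart.

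Libraries held 25.0 to 49.7 M counted reads. Values are the deposited log2 normalised counts, and those printed as counts were returned to the linear scale. A gene was tested in a line where 3 or more of its 6 libraries had a log2 value of at least 3.5, and it was called at an adjusted p under 0.05 over all genes tested in the line (limma). B2m fell in all 4 lines, with log2 fold changes for MC38, LLC1, AKR and Hepa1-6 of -1.78, -1.71, -1.57 and -1.35, and its sgB2m libraries did not overlap the sgNT libraries in any line. All 8 hepatocyte markers examined were at a log2 level of at least 6 in Hepa1-6, and 1 was in AKR. T and NK cell markers were tested in none of the lines. Of 4 myeloid markers, 1 was tested in each of MC38, LLC1 and AKR, and 2 in Hepa1-6, where 1 fell. A log2 level of at least 6 was reached by 1 myeloid marker in LLC1 and 1 in Hepa1-6. Markers of other tissues were present in several lines. Of 6 squamous markers, 2 reached that level in AKR and MC38, 1 in Hepa1-6 and 0 in LLC1. Of 6 alveolar markers, 2 did so in LLC1 and MC38 and 1 in AKR and Hepa1-6. Of 6 intestinal markers, 1 did so in MC38 and LLC1, 4 in AKR and 5 in Hepa1-6.

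In every line and group mt-Co1, the catalytic core of cytochrome c oxidase, had the highest level per kilobase of gene. It stood at 323155 normalised counts per kb in sgB2m MC38 libraries and 292593 in sgNT MC38 libraries, and at 370535 in sgB2m Hepa1-6 libraries and 394567 in sgNT Hepa1-6 libraries. mt-Nd3, a small complex I subunit, had 9347 per kb in sgB2m MC38 libraries and 10258 in sgNT MC38 libraries, the lowest of the 15 mRNAs and rRNAs there. That rank depends on how reads were divided between mt-Nd3 and its nuclear copy Gm28438, described below. In sgB2m MC38 libraries the copy had 11554 reads and mt-Nd3 had 9422. Both rRNAs, which are the most abundant RNAs of mitochondria in cells, were among the lowest here: mt-Rnr1, the small-subunit rRNA, had 2992 per kb in sgB2m LLC1 libraries and 2643 in sgNT LLC1 libraries. Whether libraries were made after poly(A) selection or removal of rRNA is not given in the sources used here, so the rRNA and tRNA levels describe what those libraries captured. Of the 22 tRNAs, mt-Ts1, a tRNA for serine whose gene lies opposite to the end of mt-Co1, had the most reads in all lines.

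As a share of all reads, the 37 genes together were higher with sgB2m in MC38 and AKR and lower in Hepa1-6. In Hepa1-6 the sgB2m libraries held 4.10%, 4.16% and 4.32%, against 4.97%, 5.18% and 5.13% in the sgNT libraries. In AKR they held 4.04%, 4.04% and 4.02% in sgB2m libraries, against 3.49%, 3.54% and 3.53% in sgNT libraries. The groups did not overlap in either line, and the difference was -0.90 percentage points in Hepa1-6 and 0.51 in AKR. MC38 differed by 0.18 points, with 3.34% ± 0.039 in sgB2m and 3.16% ± 0.079 in sgNT libraries (SD, n = 3 each). In LLC1 the groups overlapped, at 4.52% ± 0.086 in sgB2m and 4.43% ± 0.056 in sgNT libraries (SD, n = 3 each). In bulk libraries such as these, less of an RNA in each cell cannot be told apart from fewer cells that express it.

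**Figure D1:**
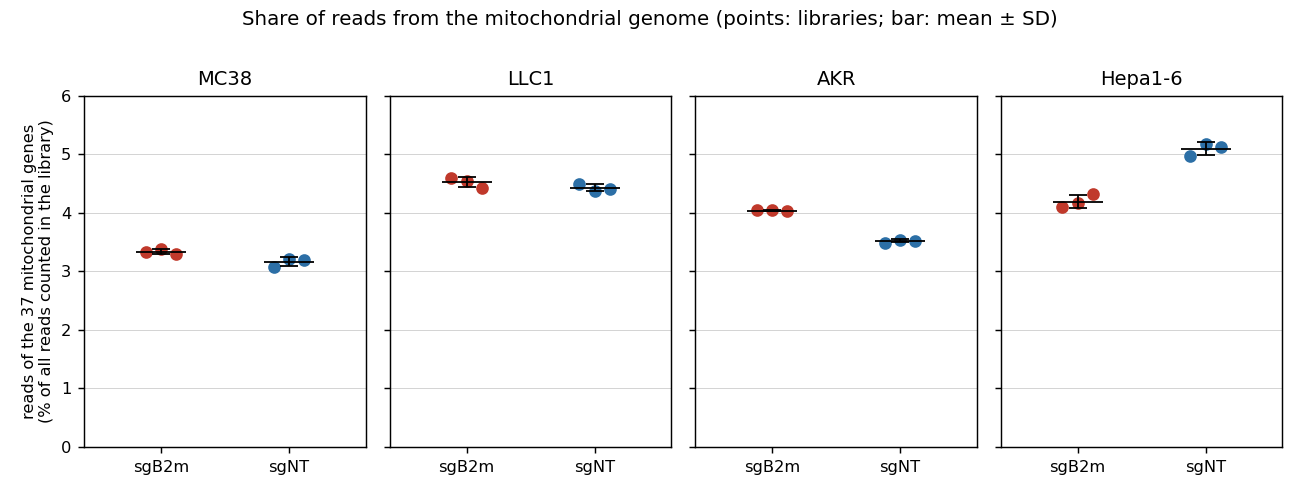
Reads of the 37 mitochondrial genes as a percentage of all reads counted in a library, with 1 point per library, and the mean with its SD as a bar. The Hepa1-6 sgB2m libraries lie at 4.10% to 4.32%, below the sgNT libraries at 4.97% to 5.18%, while in AKR the sgB2m libraries lie above the sgNT libraries.

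Hepa1-6 was the line with the most calls among the mitochondrial transcripts. All 13 mRNAs and both rRNAs fell, with a median log2 fold change of -0.42 over the mRNAs, against -0.0093 over all tested genes of the line. Of the 31 transcripts tested, 19 fell and 3 rose; over all genes tested in Hepa1-6, 19.2% fell, 18.6% rose and 37.8% were called in either direction. The 3 that rose were all tRNAs, and 1 rose without sgB2m replicate 2 or without sgNT replicate 1. Of these 3, mt-Tq passed the filter only through its sgB2m libraries, as given below. In 25 of the 31 the groups did not overlap, which was so for 47.6% of all genes tested in the line. Calls of 13 of the 15 mRNAs and rRNAs held in all 16 alternative analyses. Under quantile normalisation, which gives the top-ranked gene the same value in every library, mt-Co1 was fixed at 0, mt-Co3 was at 0.02 and the median of the mRNAs was -0.27.

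The rRNA mt-Rnr1 showed the widest fall. It had 7431, 7498 and 8108 normalised counts in the sgB2m libraries of Hepa1-6, against 15272, 15952 and 15211 in the sgNT libraries, a log2 change of -1.01 ± 0.034 (SE, adjusted p 3.44e-12). Every sgB2m library lay far below every sgNT library. mt-Rnr2, the large-subunit rRNA, had 8668, 8125 and 9266 counts in sgB2m and 12513, 13105 and 12757 in sgNT libraries, a log2 change of -0.56 ± 0.039 (SE, adjusted p 1.76e-08). In the other lines mt-Rnr2 was called in none, and mt-Rnr1 rose in LLC1 by 0.18 ± 0.054 on the log2 scale (SE, adjusted p 0.015), although the LLC1 groups overlapped. That call in LLC1 ended in 5 of 16 alternative analyses, among them those without sgB2m replicate 3, sgNT replicate 1 or sgNT replicate 3, where its adjusted p reached 0.062.

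Complex I, the NADH dehydrogenase at the entry of the respiratory chain, takes 7 subunits from the mitochondrial genome. All 7 fell in Hepa1-6, with log2 fold changes between -0.87 and -0.39 and a median of -0.51. mt-Nd1, which forms part of the quinone-binding site, had 92010, 91696 and 95697 normalised counts in sgB2m Hepa1-6 libraries, against 165692, 171643 and 172958 in sgNT libraries, a log2 change of -0.87 ± 0.019 (SE, adjusted p 1.82e-14). The 3 sgB2m libraries were close to each other and well apart from the sgNT libraries. mt-Nd3 had 3548, 3423 and 3444 counts in sgB2m and 6521, 6027 and 6187 in sgNT libraries, a log2 change of -0.85 ± 0.038 (SE, adjusted p 1.23e-10). mt-Nd2, mt-Nd4 and mt-Nd5, the proton-pumping subunits of the membrane arm, fell by 0.69, 0.39 and 0.50 on the log2 scale. mt-Nd4l and mt-Nd6 fell by 0.51 and 0.42.

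The same 7 transcripts did not share a direction in the other lines. In LLC1, mt-Nd1, mt-Nd2 and mt-Nd3 rose while mt-Nd4, mt-Nd5 and mt-Nd6 fell. mt-Nd1 had 61668, 61027 and 57781 counts in sgB2m LLC1 libraries and 52336, 50897 and 50865 in sgNT libraries, and rose by 0.23 ± 0.025 (log2, SE, adjusted p 5.16e-06). mt-Nd5 had 86344, 78176 and 78024 counts in sgB2m and 95010, 92255 and 90942 in sgNT libraries, and fell by 0.20 on the log2 scale (adjusted p 1.87e-04). The groups of both genes were apart. mt-Nd3 had the highest change among the mRNAs of LLC1, at 0.39 ± 0.045 (log2, SE), with 4681, 5088 and 4923 counts in sgB2m and 3957, 3564 and 3665 in sgNT libraries. The falls of mt-Nd4 and mt-Nd6 were small, at -0.09 and -0.16. The call of mt-Nd4 ended without sgNT replicate 2 or 3 and that of mt-Nd6 without sgB2m replicate 2 or 3 or sgNT replicate 2 or 3, where their adjusted p reached 0.067 for mt-Nd4 and 0.15 for mt-Nd6. Both calls also ended without a filter, without an intensity trend, and when scaled to reads outside the mitochondrial genome. That of mt-Nd6 ended under quantile normalisation too. Of the 16 alternatives, 5 ended the call of mt-Nd4 (adjusted p up to 0.23) and 8 that of mt-Nd6 (up to 0.47).

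In MC38 the signs ran the other way. mt-Nd5 had 78604, 78212 and 78262 counts in sgB2m MC38 libraries, against 68677, 67555 and 60477 in sgNT libraries, and rose by 0.26 ± 0.047 (log2, SE, adjusted p 0.0024). mt-Nd4l rose by 0.30 ± 0.064, with 10136, 9845 and 9886 counts in sgB2m and 9005, 7942 and 7414 in sgNT libraries. mt-Nd1 and mt-Nd2 fell by 0.14 and 0.16 on the log2 scale. All 4 genes had groups that did not overlap. The call of mt-Nd1 ended without sgB2m replicate 1, sgB2m replicate 3 or sgNT replicate 2, where its adjusted p reached 0.10. The calls of mt-Nd1, mt-Nd2 and mt-Nd4l in MC38 and of mt-Nd5 in AKR also ended without an intensity trend. In AKR, mt-Nd5 fell by 0.18 on the log2 scale, with 40947, 45767 and 43661 counts in sgB2m and 48178, 48378 and 50648 in sgNT libraries. mt-Nd4l also fell by 0.18 in AKR, a call that ended in 8 of 16 alternatives. It ended without sgB2m replicate 3 or without any 1 of the 3 sgNT libraries, where its adjusted p reached 0.12. It also ended without a filter, without an intensity trend, and when scaled to reads outside the mitochondrial genome. Under quantile normalisation it ended with an adjusted p of 0.25. The other 5 were not called in AKR, with log2 fold changes between -0.06 and 0.11.

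**Figure D2:**
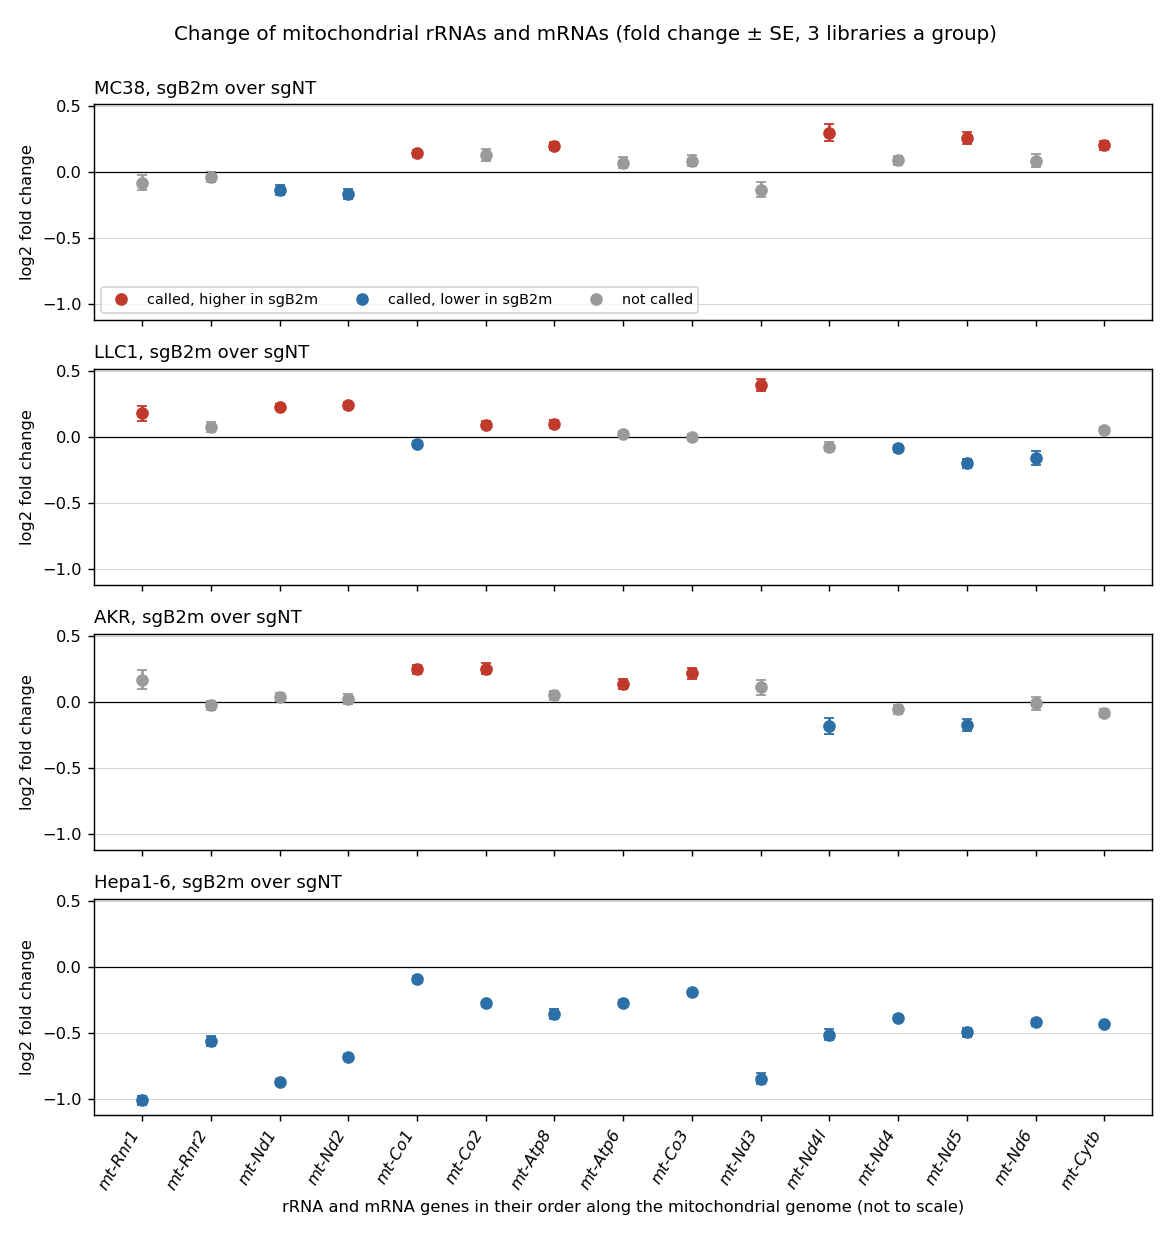
Log2 fold change, sgB2m over sgNT, of the 2 rRNAs and 13 mRNAs in gene order, with the standard error as a bar and 1 panel per line. All 15 lie below 0 in Hepa1-6, with mt-Rnr1 at -1.01 and mt-Co1 at -0.09, while the signs are mixed in MC38, LLC1 and AKR.

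Complex III, which passes electrons from ubiquinol to cytochrome c, takes only cytochrome b from the mitochondrial genome. Its gene, mt-Cytb, had 54135, 53349 and 55897 counts in sgB2m Hepa1-6 libraries, against 72574, 73922 and 74544 in sgNT libraries, a log2 change of -0.44 ± 0.019 (SE, adjusted p 7.22e-11). It rose in MC38 by 0.20 ± 0.034 (log2, SE, adjusted p 0.0015), with 77193, 79523 and 76886 counts in sgB2m and 65419, 68897 and 68434 in sgNT libraries. Both changes separated the groups fully. In LLC1 and AKR the values were 0.06 and -0.08, with adjusted p of 0.050 and 0.055, and neither was called.

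Complex IV, cytochrome c oxidase, reduces oxygen and takes its 3 core subunits from mt-Co1, mt-Co2 and mt-Co3. In AKR all 3 rose by similar amounts. mt-Co1 had 588302, 596514 and 594015 counts in sgB2m AKR libraries, against 494409, 502169 and 503767 in sgNT libraries, a log2 change of 0.25 ± 0.033 (SE, adjusted p 1.40e-04). mt-Co2 rose by 0.25 ± 0.043 and mt-Co3 by 0.22 ± 0.042 (log2, SE), and for each of the 3 the groups were apart. Quantile normalisation, which fixes mt-Co1 at 0, ended its calls in AKR, MC38 and Hepa1-6. In Hepa1-6 the 3 fell less than the complex I mRNAs did. mt-Co1 had 555333, 568005 and 594091 counts in sgB2m Hepa1-6 libraries and 586525, 625113 and 617180 in sgNT libraries, and fell by 0.09 on the log2 scale. Its groups overlapped, and the call ended in the analysis without a filter on low values and in that without an intensity trend. mt-Co2 and mt-Co3 fell by 0.28 and 0.19.

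In MC38, mt-Co1 rose by 0.14 ± 0.028 (log2, SE, adjusted p 0.0038), with 496706, 502426 and 498691 counts in sgB2m and 447484, 456810 and 451873 in sgNT libraries. That call ended without an intensity trend. mt-Co2 and mt-Co3 were at 0.13 and 0.09 in MC38 and were not called. In LLC1, mt-Co1 was at -0.05, mt-Co2 at 0.09 and mt-Co3 at 0.00. The LLC1 call of mt-Co1 ended in 11 of 16 alternatives, including those without sgB2m replicate 3 and without each sgNT library, where its adjusted p reached 0.12. That of mt-Co2 ended without sgB2m replicate 2 or sgNT replicate 3, where its adjusted p reached 0.055. The LLC1 call of mt-Co2 also ended without a filter and without an intensity trend, where its adjusted p reached 0.18.

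Complex V, the ATP synthase, takes the proton-channel subunit from mt-Atp6 and a small stator subunit from mt-Atp8. In Hepa1-6, mt-Atp8 fell by 0.36 and mt-Atp6 by 0.27 on the log2 scale, and the groups of both were apart. mt-Atp8 rose in MC38 by 0.20 ± 0.032 (log2, SE, adjusted p 0.0012), with 34024, 34225 and 34133 counts in sgB2m and 30030, 29488 and 29811 in sgNT libraries. It was also called in LLC1, at 0.10 with overlapping groups, a call that ended without sgB2m replicate 1 or 2 or sgNT replicate 2 or 3, where its adjusted p reached 0.099. The LLC1 call of mt-Atp8 also ended without a filter, without an intensity trend (adjusted p 0.20) and under median centring. mt-Atp6 rose in AKR by 0.14 ± 0.038 (log2, SE, adjusted p 0.013), with 81186, 76370 and 76048 counts in sgB2m and 68882, 71250 and 72228 in sgNT libraries, and that call ended without sgNT replicate 1 or 2, where its adjusted p reached 0.090. The AKR call of mt-Atp6 also ended without an intensity trend and with the replicate block.

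Counted over all transcripts tested, AKR had 7 that rose and 2 that fell of 32, against 42.9% called among all its genes (21% rose and 21.9% fell). LLC1 had 11 that rose and 5 that fell of 34, against 42.4% (20.7% rose and 21.8% fell). MC38 had 11 that rose and 2 that fell of 36, against 31.8% (15.9% rose and 15.8% fell). The shares called were 28.1% in AKR, 47.1% in LLC1 and 36.1% in MC38, close to those of all genes in LLC1 and MC38 and below them in AKR, while in Hepa1-6 it was 71.0%. Median log2 fold changes of the 13 mRNAs were 0.089 in MC38, 0.025 in LLC1 and 0.035 in AKR. The LLC1 median was 0.0099 without sgB2m replicate 1 and 0.049 without sgB2m replicate 3, and the AKR median was 0.017 without sgNT replicate 1. Median centring turned the AKR median to -0.0052. Groups did not overlap for 18 transcripts in MC38 (45% of all genes), 18 in LLC1 (51.8%) and 16 in AKR (52.5%). The counts of falls moved when single libraries were left out. MC38 had 1 fall without sgB2m replicate 1, sgB2m replicate 3 or sgNT replicate 2, and 4 without sgNT replicate 1. LLC1 had 3 without sgB2m replicate 2 or 3, 1 without sgNT replicate 2 or 3, and 7 rises without sgNT replicate 3. AKR had 1 fall without sgB2m replicate 3 or any 1 sgNT library. Scaling to reads outside the mitochondrial genome gave 12 rises in AKR, and leaving out the intensity trend gave 7 rises in MC38.

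The make-up of the mitochondrial reads differed between the guides. In Hepa1-6, complex I mRNAs made up 22.6%, 22.2% and 22.5% of mitochondrial reads in sgB2m libraries, against 28.7%, 28.5% and 28.6% in sgNT libraries. Complex IV mRNAs made up 60.8%, 61.4% and 60.9% in sgB2m libraries, against 53.7%, 54.2% and 54.0% in sgNT libraries. In AKR the complex IV share was also higher and the complex I share lower, with complex IV at 61.6% ± 0.20 in sgB2m and 57.6% ± 0.18 in sgNT libraries (SD, n = 3 each) and complex I at 19.9% ± 0.26 in sgB2m and 22.5% ± 0.19 in sgNT libraries (SD, n = 3 each). As a share of all reads, however, complex I was at 0.805% ± 0.011 in sgB2m and 0.792% ± 0.0097 in sgNT AKR libraries (SD, n = 3 each), with overlapping groups, whereas it was at 0.941% ± 0.027 in sgB2m and 1.46% ± 0.029 in sgNT Hepa1-6 libraries (SD, n = 3 each). In MC38, complex I made up 24.2% ± 0.094 of mitochondrial reads in sgB2m and 25.5% ± 0.29 in sgNT libraries, and complex IV 55.7% ± 0.13 in sgB2m and 54.5% ± 0.19 in sgNT libraries (SD, n = 3 each), with groups apart for both. In LLC1 the complex IV share was lower with sgB2m, at 52.5% ± 0.56 in sgB2m and 53.5% ± 0.23 in sgNT libraries (SD, n = 3 each). The shares of mitochondrial reads are taken within a library and so do not depend on how libraries were scaled to each other. They do depend on how reads were divided between these genes and their nuclear copies, described below, whose reads are not included.

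The ratio of mt-Co1 to mt-Nd1 reads gives the comparison for a single pair of genes. Its log2 value was 2.59, 2.63 and 2.63 in sgB2m Hepa1-6 libraries and 1.82, 1.86 and 1.84 in sgNT libraries, a difference of 0.78. The difference was 0.28 in MC38, 0.21 in AKR and -0.28 in LLC1, and in each line the 2 groups did not overlap. The ratio of mt-Nd1 to mt-Nd5, both on the plus strand, differed by -0.40 in MC38, -0.37 in Hepa1-6, 0.43 in LLC1 and 0.21 in AKR (log2), again with groups apart in each line. The ratio of the 2 rRNAs, mt-Rnr1 to mt-Rnr2, differed by -0.45 in Hepa1-6 and 0.20 in AKR with groups apart, and by 0.10 in LLC1 and -0.04 in MC38 with groups that overlapped.

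**Figure D3:**
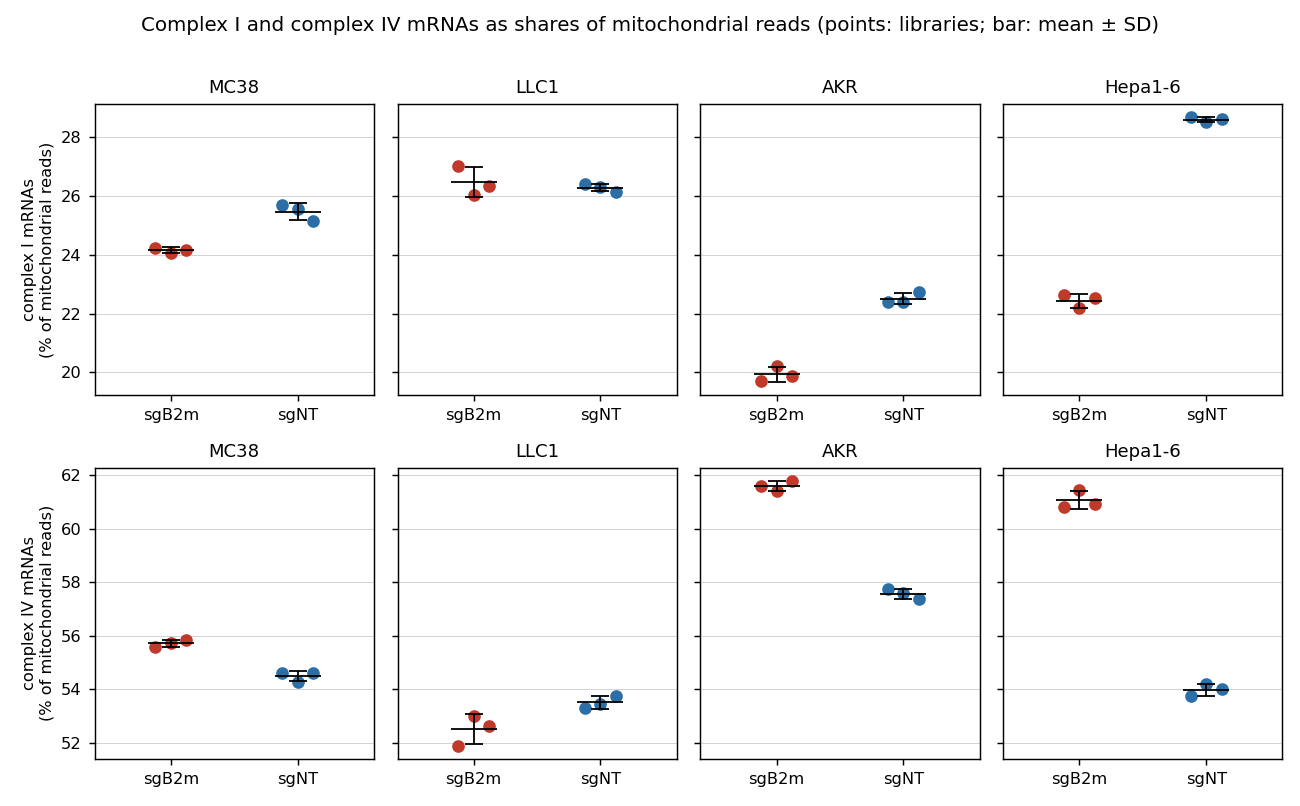
Complex I mRNAs (upper panels) and complex IV mRNAs (lower panels) as percentages of mitochondrial reads, with 1 point per library and the mean with its SD as a bar; the axes do not start at 0. In Hepa1-6 the sgB2m libraries lie near 22.4% for complex I and 61.1% for complex IV, and the sgNT libraries near 28.6% and 54.0%.

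Nuclear genes for subunits of the same complexes were counted from lists. In Hepa1-6 they fell too: 17 of 36 tested complex I genes fell, 6 of 9 complex III genes fell and 1 rose, 7 of 11 complex IV genes fell, and 14 of 17 complex V genes fell. Of the 64 genes of complexes I, IV and V, 0 rose in Hepa1-6 by limma at an adjusted p under 0.05, and 1 did at an unadjusted p under 0.05. Of the 4 complex II genes, none of which is mitochondrial, 3 fell. The median log2 fold change of the nuclear complex I genes was -0.16, beside -0.51 for the 7 mitochondrial ones, while for complex IV the medians were -0.19 on both sides. Over all genes tested in Hepa1-6, 19.2% fell and 37.8% were called. In AKR, 9 of 11 nuclear complex IV genes rose, with a median of 0.27, beside 0.25 for the 3 mitochondrial ones. The other AKR counts were 4 up and 1 down of 36 for complex I, 5 up and 1 down of 9 for complex III and 6 up of 17 for complex V, where 42.9% of all AKR genes were called and 21% rose. Of the 4 complex II genes in AKR, 0 were called by limma, and 1 rose and 1 fell at an unadjusted p under 0.05.

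In LLC1 the nuclear genes mostly rose where they were called, with 13 up and 2 down of 36 for complex I, 4 up and 1 down of 9 for complex III, 7 up of 11 for complex IV and 9 up and 1 down of 17 for complex V, where 42.4% of all LLC1 genes were called and 20.7% rose. In MC38 they mostly fell, with 3 up and 12 down of 36 for complex I, 6 down of 9 for complex III, 5 down of 11 for complex IV and 8 down of 17 for complex V, where 31.8% of all MC38 genes were called and 15.8% fell. The mitochondrial and nuclear medians in MC38 were 0.20 and -0.24 for complex III, 0.13 and -0.25 for complex IV, and 0.13 and -0.23 for complex V. For complex I they were 0.09 and -0.18, but the 7 mitochondrial genes went both ways, with 2 called up and 2 called down, and the median was that of mt-Nd6, which was not called. The difference between the mitochondrial and the nuclear genes of a complex was not tested.

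**Figure D4:**
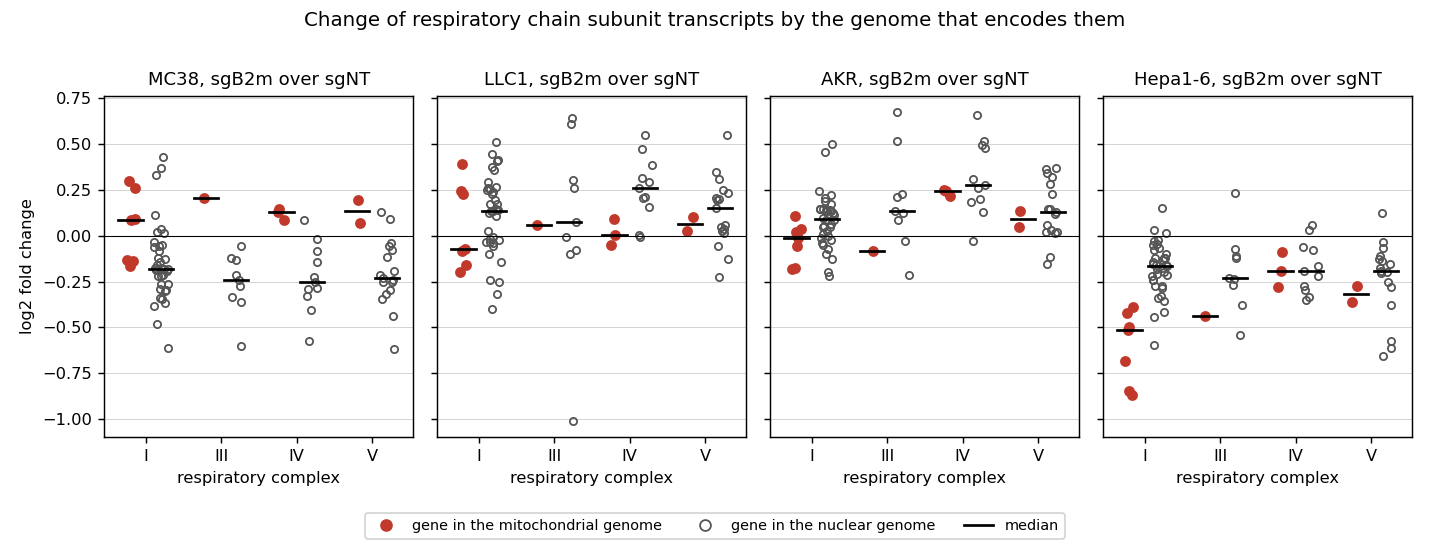
Log2 fold change, sgB2m over sgNT, of respiratory complex subunit genes, with mitochondrial genes as filled points left of nuclear genes as open points, and the median as a line. In Hepa1-6 the medians of both kinds lie below 0 in every complex, while in MC38 the mitochondrial medians lie above 0 and the nuclear medians below 0, with mitochondrial complex I genes on both sides of 0.

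The tRNAs had far fewer reads than the mRNAs, and not all could be tested. Of the 22, the filter left 21 for MC38, 19 for LLC1, 17 for AKR and 16 for Hepa1-6; mt-Td, for aspartate, was tested in no line, and mt-Tf and mt-Tv, for phenylalanine and valine, in MC38 alone. Among them 6 rose in MC38, 5 rose and 1 fell in LLC1, 3 rose in AKR, and 3 rose and 4 fell in Hepa1-6. The shares of tested tRNAs called were 28.6% in MC38, 31.6% for LLC1, 17.6% for AKR and 43.75% for Hepa1-6. Over all genes of those lines the shares were 31.8%, 42.4%, 42.9% and 37.8%. By limma 0 fell in MC38 and 0 in AKR, which also held at an unadjusted p under 0.05 and with limma's voom on recovered reads. Mature tRNAs are short, folded and heavily modified, and libraries made for long RNA capture them poorly, so reads at a tRNA gene can also stem from precursors that still hold it.

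The 3 neighbouring tRNAs whose sequences are printed above moved together. mt-Ts2 had 243, 329 and 248 normalised counts in sgB2m LLC1 libraries, against 103, 60.3 and 88.3 in sgNT libraries, a log2 change of 1.71 ± 0.20 (SE, adjusted p 6.79e-06). mt-Tl2 had 265, 341 and 232 in sgB2m and 96.5, 61.3 and 104 in sgNT libraries, and rose by 1.68 ± 0.20. mt-Th had 213, 302 and 217 in sgB2m and 113, 65.2 and 104 in sgNT libraries, and rose by 1.39 ± 0.21. For all 3, each sgB2m library of LLC1 lay above each sgNT library.

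MC38 showed the same 3 genes as high. mt-Tl2 had 349, 391 and 320 counts in sgB2m MC38 libraries, against 179, 104 and 160 in sgNT libraries, a log2 change of 1.29 ± 0.20 (SE, adjusted p 9.91e-04). mt-Ts2 rose by 1.24 ± 0.24 and mt-Th by 0.91 ± 0.22 (log2, SE), the last a call that ended without an intensity trend. The mRNAs on either side of the block, mt-Nd4 and mt-Nd5, changed by 0.09 and 0.26 in MC38, and by -0.09 and -0.20 in LLC1. In AKR, mt-Th rose by 0.45 ± 0.16, with 149, 116 and 127 counts in sgB2m and 85.9, 94.4 and 105 in sgNT libraries, a call that ended in 9 of 16 alternatives, among them those without sgB2m replicate 1 or 3 or sgNT replicate 1 or 2, where its adjusted p reached 0.15. mt-Ts2 and mt-Tl2 were at 0.34 and 0.31 in AKR and were not called.

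In Hepa1-6 none of the 3 was called, and the libraries of a group differed widely. mt-Th had 33.8, 91.2 and 45.2 counts in sgB2m libraries and 67.3, 18.6 and 42.1 in sgNT libraries, so that sgB2m replicate 2 was high and sgNT replicate 2 low. The same libraries were highest and lowest for mt-Ts2 and mt-Tl2. In MC38 and LLC1, too, replicate 2 was the highest of the sgB2m libraries and the lowest of the sgNT libraries for all 3 genes, while in AKR it was not. The 3 genes lie next to each other and their values are therefore not independent. Without replicate 2 of either group the calls of all 3 genes in LLC1 and in MC38 held. In Hepa1-6 the value of mt-Th was -0.04 without sgNT replicate 2, against 0.45 with all libraries.

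**Figure D5:**
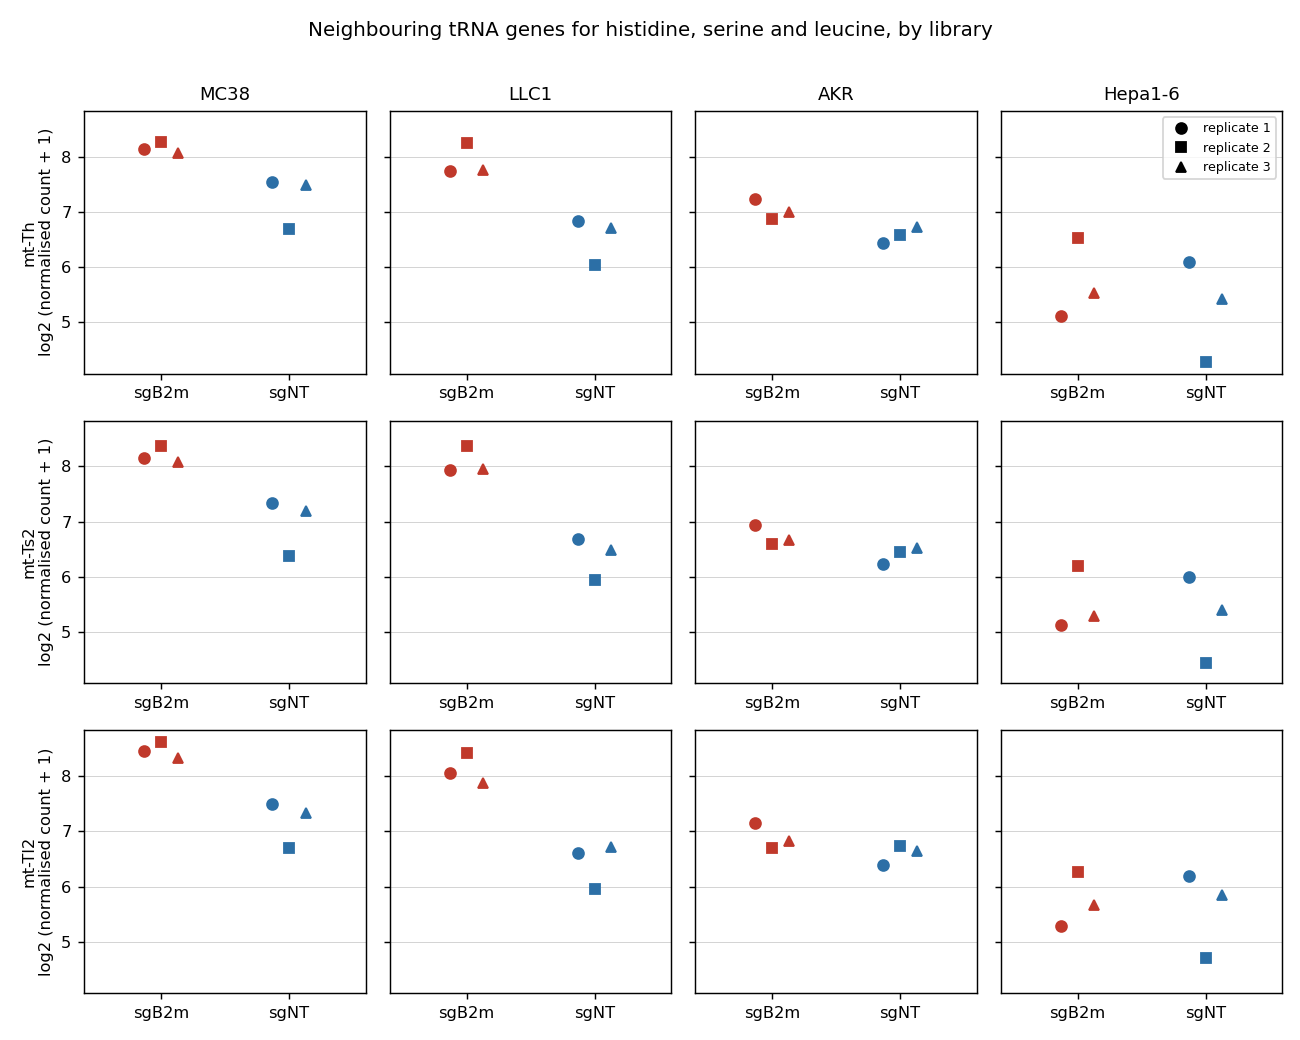
Log2 (normalised count + 1) of mt-Th, mt-Ts2 and mt-Tl2 in each library, with symbols for the replicate number. In MC38 and LLC1 the sgB2m libraries lie above the sgNT libraries for all 3 genes, while in Hepa1-6 they overlap.

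Several other tRNAs were called at low counts. mt-Tw, for tryptophan, had 101, 89.2 and 100.5 counts in sgB2m Hepa1-6 libraries against 49.1, 53.5 and 61.5 in sgNT libraries, a log2 change of 0.82 ± 0.22 (SE, adjusted p 0.0086), and the call held in all 16 alternatives. mt-Tm, for methionine, had 32.8, 36.5 and 35.0 counts in sgB2m Hepa1-6 libraries against 10.0, 14.2 and 21.0 in sgNT libraries, a log2 change of 1.21 ± 0.39 (SE, adjusted p 0.024), and in AKR it had 42.8, 54.1 and 45.2 in sgB2m and 28.6, 22.4 and 27.0 in sgNT libraries, a change of 0.84 ± 0.26 (SE, adjusted p 0.022). mt-Tq, for glutamine, had 25.4, 27.4 and 18.1 counts in sgB2m Hepa1-6 libraries and 10.0, 7.65 and 10.5 in sgNT libraries. Most of its sgNT libraries lay below the filter's log2 value of 3.5. It was therefore tested only through its sgB2m libraries, where it was high, and its call is not independent of the filter. The calls of mt-Tm and mt-Tq rest on few reads, and each ended when single libraries were left out: sgB2m replicate 2 or 3 or sgNT replicate 2 for mt-Tm in AKR, sgB2m replicate 2 or 3 or sgNT replicate 1 for mt-Tm in Hepa1-6, and any library but sgB2m replicate 3 for mt-Tq. The adjusted p then reached 0.073 for mt-Tm in AKR, 0.084 for mt-Tm in Hepa1-6 and 0.12 for mt-Tq. Both Hepa1-6 calls also ended without a filter, and that of mt-Tq with the replicate block.

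The falls among the tRNAs of Hepa1-6 were of the size of those of the mRNAs. mt-Tp, for proline, had 246, 233 and 256 counts in sgB2m Hepa1-6 libraries against 347, 342 and 359 in sgNT libraries, a log2 change of -0.51 ± 0.11 (SE, adjusted p 0.0022). mt-Tl1, a second tRNA for leucine, had 477, 530 and 586 counts in sgB2m and 676, 692 and 686 in sgNT libraries and fell by 0.37 on the log2 scale. mt-Te, for glutamate, fell by 0.30 in Hepa1-6 and by 0.23 in LLC1, where it had 866, 753 and 802 counts in sgB2m and 902, 961 and 964 in sgNT libraries. The LLC1 call of mt-Te ended without sgB2m replicate 2 or sgNT replicate 2 or 3, where its adjusted p reached 0.079. It also ended without an intensity trend.

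The changes were compared between lines in 1 fit of all 24 libraries, over the 12674 genes tested in all 4 lines. The response to the guide differed between lines for 24 of the 31 mitochondrial transcripts tested, where 69.8% of all genes were called. All 15 mRNAs and rRNAs were among them, with adjusted p between 1.31e-14 for mt-Nd1 and 5.04e-05 for mt-Nd6. Of the 6 pairs of lines, the 3 with Hepa1-6 held the most calls among the mRNAs and rRNAs. MC38 was above Hepa1-6 for 15 of 15 (37.7% of all genes differed), AKR was above Hepa1-6 for 15 of 15 (41.8%), and LLC1 was above Hepa1-6 for 14 of 15 (45.2%), with mt-Co1 as the exception. For mt-Nd1 the response in LLC1 minus that in Hepa1-6 was 1.10 ± 0.046 (log2, SE, adjusted p 4.82e-15).

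Between the other lines the differences went both ways. MC38 against LLC1 had 10 of 15 called, 6 higher and 4 lower (40.2% of all genes), MC38 against AKR 10 of 15, 5 higher and 5 lower (47.6%), and LLC1 against AKR 7 of 15, 4 higher and 3 lower (39.5%). For mt-Nd3 the MC38 response minus the LLC1 response was -0.53 ± 0.075, and for mt-Nd5 it was 0.46 ± 0.073 (log2, SE). For mt-Ts2 the LLC1 response exceeded that of AKR by 1.38 ± 0.45 (log2, SE, adjusted p 0.018), and the difference of 0.47 between LLC1 and MC38 was not called (adjusted p 0.44).

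Part of the mitochondrial sequence is also present in the nuclear genome as transferred copies, and several of these hold rows of their own in the tables. On chromosome 1 they lie side by side on the minus strand (GRCm38): Gm28661, at 24614885 to 24615565, matches mt-Co2, and Gm10925, at 24613974 to 24614651, matches mt-Atp6. Gm28437 matches mt-Co3, Gm28438 mt-Nd3 and Gm10222 mt-Nd4l. Of all stretches of 50 bases in those 5 mitochondrial genes, 98% to 100% also occur in nuclear transcripts. The figure was 51.1% for mt-Co1 and 62.2% for mt-Nd4, and 0% for mt-Rnr1, mt-Nd1, mt-Nd6, mt-Atp8, mt-Cytb and all tRNAs.

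The 5 copies named above had about as many reads as their mitochondrial genes or more. The group ratio of Gm28661 to mt-Co2 reads lay between 0.965 and 1.01, and that of Gm28437 to mt-Co3 between 1.0 and 1.01, while Gm28438 to mt-Nd3 reached 1.23. Copies of part of a gene had fewer, with ratios of 0.397 to 0.440 for Gm28439 to mt-Nd4 and 0.0772 to 0.0996 for Gm29216 to mt-Co1. The 2 on chromosome 2 had ratios of 0.0100 to 0.0148 for Gm13341 to mt-Co2 and 0.0027 to 0.0052 for Gm13340 to mt-Co1. For the 5 genes with a copy along their length, levels and the assignment of reads to either locus are therefore uncertain. Over these 5 genes and 4 lines, the log2 fold change of copy and gene differed by at most 0.16. That widest gap was for mt-Nd3 in MC38, where the copy was at 0.03 and the gene at -0.13, so the signs were opposite. Outside these 5, Gm13340 and Gm13341 in LLC1 were at 0.22 and 0.36, against -0.05 for mt-Co1 and 0.09 for mt-Co2. Copies held 1.17% of all reads in sgB2m Hepa1-6 libraries and 1.37% in sgNT Hepa1-6 libraries, and 1.11% in sgB2m AKR libraries and 0.925% in sgNT AKR libraries. Of the genes that share no such stretch, mt-Rnr1, mt-Nd1, mt-Nd6, mt-Atp8 and mt-Cytb fell in Hepa1-6 as given above, while tRNAs there were called in both directions or not called.

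Nuclear genes that act on mitochondrial DNA and RNA were listed by function. Of those for transcription and replication of mitochondrial DNA, 4 fell and 1 rose of 26 tested in MC38, 14 fell and 2 rose of 26 in LLC1, 8 fell and 6 rose of 27 in AKR, and 4 fell and 7 rose of 26 in Hepa1-6. That makes 19.2% of the list called in MC38 beside 31.8% of all its genes, 61.5% for LLC1 beside 42.4%, 51.9% for AKR beside 42.9%, and 42.3% for Hepa1-6 beside 37.8%. The difference between a list and all genes was not tested. Polrmt, the mitochondrial RNA polymerase, fell by 0.52 in MC38 on the log2 scale, where Mterf4, which acts in mitochondrial ribosome assembly, rose by 0.52. Mgme1, an exonuclease of mitochondrial DNA, and Rrm2b, a ribonucleotide reductase subunit, fell by 0.77 and 0.66 in LLC1, where Mterf4 and Mterf2 rose by 0.59 and 0.56. Rrm2b also fell in AKR, by 1.03, with Slc25a33, a pyrimidine nucleotide carrier, at -0.46, while Top1mt, the mitochondrial topoisomerase, and Polg2, the accessory subunit of the mitochondrial DNA polymerase, rose by 0.85 and 0.57. In Hepa1-6, Endog, a mitochondrial nuclease, and Mrpl12, a ribosomal protein, fell by 0.93 and 0.26, and Primpol, a primase, and Exog, a nuclease, rose by 0.42 and 0.39.

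Of 43 genes for processing and decay of mitochondrial RNA, 13 fell and 1 rose in MC38, 21 fell and 3 rose in LLC1, 11 fell and 8 rose in AKR, and 7 fell and 7 rose in Hepa1-6. The shares called were 32.6% in MC38 beside 31.8% of all its genes, 55.8% for LLC1 beside 42.4%, 44.2% for AKR beside 42.9% and 32.6% for Hepa1-6 beside 37.8%, near the share over all genes in MC38 and AKR. Lrpprc, which binds and stabilises mitochondrial mRNAs, fell by 0.50 in Hepa1-6 and by 0.80 in AKR on the log2 scale. Its partner Slirp rose by 0.62 in LLC1. Trmt10c, a subunit of the nuclease that cuts the 5′ ends of mitochondrial tRNAs, fell by 0.66 in LLC1 and rose by 0.34 in Hepa1-6. Pus1, a pseudouridine synthase, and Nsun2, an RNA methyltransferase, both fell by 0.78 in LLC1. Rbfa, a factor of mitochondrial ribosome assembly, fell by 0.71 in MC38.

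Regulators of mitochondrial gene expression were called in both directions: 2 rose and 2 fell of 15 tested in MC38, 1 and 6 of 15 in LLC1, 2 and 7 of 16 in AKR, and 7 and 4 of 17 in Hepa1-6. The shares called were 26.7% in MC38 beside 31.8% of all its genes, 46.7% for LLC1 beside 42.4%, 56.2% for AKR beside 42.9% and 64.7% for Hepa1-6 beside 37.8%. Ppargc1a, a coactivator of mitochondrial biogenesis, rose by 2.79 in MC38 and by 0.90 in Hepa1-6 (log2). Myc fell by 1.24 in LLC1 and 1.16 in AKR and rose by 1.10 in Hepa1-6. Nrf1, an activator of nuclear genes for respiratory subunits, fell by 0.71 in AKR and 0.23 in Hepa1-6. How these changes bear on the mitochondrial transcripts was not tested.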

How the data were processed

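The authors deposited log2 normalised counts, with a table for each line. STAR, DESeq2 and FastQC 0.11.5 are named in the submitters' processing notes, with build mm10; the gene counter, its annotation and its strand setting are not given in the sources used here. On a linear scale and less a pseudocount of 1, 100% of values were whole multiples of 1 step per library (within 0.05 reads), so reads could be recovered for shares. Each line was normalised separately, so levels are compared within lines. The members and gene lists were chosen with earlier results of these data known. Named were all mRNAs and rRNAs, the highest 2 and lowest 2 called tRNAs per line, and some further tRNAs. From the gene lists only part of the called genes were named, and the rule for tRNAs was not kept for them.

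Within each line limma 3.58.1 in R 4.3.3 tested sgB2m against sgNT on the log2 scale, two-sided, with an intensity trend and no covariate, and p-values were adjusted by Benjamini-Hochberg over all tested genes. A constant added before the logarithm draws fold changes of low genes toward 0. A joint fit of 24 libraries tested differences between lines. The fit within each line was tested on simulated data, and the joint fit was not. Alternatives changed the filter, pseudocount, trend, scaling, replicate block and libraries.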

Additional observations from a re-analysis of the deposited data

Results flagged for a closer look

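The 19 transcripts below are given because their change with sgB2m against sgNT differed between the 4 lines, by limma's F test of the interaction of line and guide, adjusted over the 12674 genes tested in all lines. The adjusted p was 2.27e-10 for mt-Rnr1 and 9.01e-09 for mt-Rnr2. Among complex I mRNAs it was 1.31e-14 for mt-Nd1, 8.51e-13 for mt-Nd2, 1.46e-11 for mt-Nd3, 6.54e-07 for mt-Nd4l, 1.49e-08 for mt-Nd4, 6.42e-08 for mt-Nd5 and 5.04e-05 for mt-Nd6. It was 1.79e-11 for mt-Cytb, and 8.95e-07, 3.62e-07 and 3.13e-06 for mt-Co1, mt-Co2 and mt-Co3. For mt-Atp8 it was 7.58e-08 and for mt-Atp6 2.01e-06. Among those tRNAs it was 0.0148 for mt-Ts2, 0.00703 for mt-Tl2, 5.96e-04 for mt-Tl1 and 0.00160 for mt-Tp. The remaining tRNAs that passed were mt-Ts1 (2.43e-04), mt-Tn (3.82e-04), mt-Tw (0.00136), mt-Ta (0.00695) and mt-Tc (0.0102). In the interaction test 69.8% of all genes passed the same threshold.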

How the results depend on the processing

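The transcripts were re-examined in 16 alternatives per line, of which voom on recovered reads and the sum with nuclear copies were chosen after seeing the data. The planned edgeR and DESeq2 analyses were not run, and voom on reads recovered from the log2 values was run in their place. Gene-level values were tallied for all mRNAs and rRNAs and for mt-Te, mt-Th, mt-Tl1, mt-Tl2, mt-Tm, mt-Tp, mt-Tq and mt-Ts2, giving 92 results. Of these 1467 values, 1296 kept direction and side of the threshold, 93 lost a call, 42 gained one and 36 changed sign. The other tRNAs were left out of the tally, among them mt-Ta, whose MC38 call ended in 8 of 16 alternatives. With the replicate block there were 11 MC38 rises, 12 LLC1 rises, 5 AKR rises and 2 Hepa1-6 rises, and 23 differences between lines; same-numbered libraries correlated at -0.03 to 0.05 and were not taken as pairs, though in LLC1 each library correlated best with its own number.

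Without the intensity trend MC38 had 7 rises and 0 falls (1 fall at an unadjusted p under 0.05, limma), LLC1 had 1 fall, and AKR had 0 falls (1 unadjusted). Without a filter LLC1 had 2 falls, AKR 1 fall and Hepa1-6 1 rise. Under quantile normalisation LLC1 had 3 falls and AKR 1, and the median of the mRNAs was 0.035 in MC38, 0.11 in AKR and -0.27 in Hepa1-6. That setting fixes mt-Co1, the top-ranked gene, at 0. Scaled to reads outside the mitochondrial genome, AKR had 12 rises and 1 fall and LLC1 2 falls, with medians of 0.093 in AKR and 0.058 in LLC1. Median centring gave AKR 4 falls and a median of -0.0052. The cause was not tested.

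With 1 library left out, MC38 had 8 to 15 rises and 1 to 4 falls, LLC1 7 to 12 and 1 to 5, AKR 5 to 7 and 1 to 3, and Hepa1-6 1 to 3 and 18 to 19, and differences between lines 24 to 25. Medians of the mRNAs were 0.079 to 0.12 in MC38, 0.0099 to 0.049 in LLC1, 0.017 to 0.048 in AKR and -0.45 to -0.40 in Hepa1-6. Falls in MC38 were 1 without sgB2m replicate 1, sgB2m replicate 3 or sgNT replicate 2, and 4 without sgNT replicate 1. Falls in LLC1 were 3 without sgB2m replicate 2 or 3 and 1 without sgNT replicate 2 or 3, and rises were 7 without sgNT replicate 3. Falls in AKR were 1 without sgB2m replicate 3 or any 1 sgNT library, and rises in Hepa1-6 were 1 without sgB2m replicate 2 or sgNT replicate 1.

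Changes of sign under quantile normalisation gave 0.0176 for mt-Tl1, -0.00462 for mt-Nd4 in MC38, 0.00713 for mt-Nd4l in LLC1, 0.0324 for mt-Rnr2, -0.0626 for mt-Nd1, 0.048 for mt-Nd4, 0.112 for mt-Nd6 in AKR, and 0.021 for mt-Co3 in Hepa1-6. Median centring gave 0.0133 for mt-Tl1 in MC38, -0.0116 for mt-Co3 in LLC1, and -0.00517 for mt-Nd1, -0.018 for mt-Nd2 in AKR. Scaling to reads outside the mitochondrial genome gave 0.0274 for mt-Tl1 in LLC1, and 0.0315 for mt-Rnr2, 0.00153 for mt-Nd4, 0.0463 for mt-Nd6, 0.0304 for mt-Te in AKR. With 1 library left out, ranges that cross 0 were -0.0573 to 0.0386 for mt-Tl1 in MC38, -0.0309 to 0.0442 for mt-Tl1 in LLC1, -6.92e-05 to 0.049 for mt-Atp6 in LLC1, -0.0154 to 0.0141 for mt-Co3 in LLC1, -0.000445 to 0.0426 for mt-Nd2 in AKR, -0.064 to 0.0218 for mt-Nd6 in AKR, -0.0842 to 0.0266 for mt-Te in AKR, -0.036 to 0.865 for mt-Th in Hepa1-6, -0.162 to 0.614 for mt-Ts2 in Hepa1-6 and -0.279 to 0.46 for mt-Tl2 in Hepa1-6. Changes of sign were sought only among the transcripts of the gene-level tally. Of all those listed, mt-Co3 in Hepa1-6 was the 1 that had been called.

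Depth limits the low tRNAs: mt-Td passed the filter in no line, and mt-Tf and mt-Tv in MC38 alone.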

Other observations

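The tRNAs named here were chosen after their values were seen. mt-Ts1, the minus-strand tRNA for serine that overlaps the end of mt-Co1, rose in AKR, the line in which mt-Co1 rose most, by 0.39 ± 0.059 (log2, SE, adjusted p 3.57e-04, limma), and this held in all 16 alternatives. mt-Tk, the tRNA for lysine between mt-Co2 and mt-Atp8, rose in MC38 by 0.95 ± 0.29 and in LLC1 by 0.74 ± 0.23 (log2, SE); the MC38 call ended without any 1 library except sgB2m replicate 3 (adjusted p up to 0.12), and the LLC1 call without sgB2m replicate 1 or sgNT replicate 2 (adjusted p up to 0.071). mt-Tn, for asparagine, rose in MC38 by 0.32 and fell in Hepa1-6 by 0.37 on the log2 scale. Its MC38 call ended without any 1 sgB2m library or sgNT replicate 2 (adjusted p up to 0.093), and its Hepa1-6 call without sgNT replicate 1 or 3 (adjusted p up to 0.072). The MC38 calls of mt-Tk and mt-Tn also ended without a filter, and that of mt-Tn without an intensity trend.

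Of the 13 mRNA genes, mt-Co3, mt-Nd4 and mt-Cytb end in the annotation with a lone T in place of a full stop codon, which in mitochondria is completed by polyadenylation. Those 3 genes fell in Hepa1-6, with log2 fold changes of -0.19, -0.39 and -0.44, within the range of the other mRNAs.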
